A study of Danio rerio with 6 samples.

Results

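The genes *dkk1b*, *nkd1*, *SP5* and *axin2* were examined as single-gene readings of Wnt/β-catenin pathway output in early zebrafish cells. They were taken by gene symbol, in any letter case, and matched 4 of the 32266 genes in the deposited table: *dkk1b* (ENSDARG00000045219), *nkd1* (ENSDARG00000020053, listed as *NKD1*), *SP5* (ENSDARG00000076571) and *axin2* (ENSDARG00000100149, listed as *AXIN2*). The zebrafish *sp5a* gene carries *sp5* as a synonym, and its paralog *sp5l* was not analysed here. The genes were selected on a result seen earlier in these libraries, their rlog levels in the 3 groups, so their levels are a description and carry no test.

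In the Wnt/β-catenin pathway, Wnt ligands bound to Frizzled and LRP receptors stop the breakdown of β-catenin, which then enters the nucleus and turns on target genes together with TCF/LEF factors. Some of these targets encode proteins that act back on the pathway: Dkk1 is secreted and blocks the LRP co-receptors, Nkd1 binds Dishevelled in the cytoplasm, Axin2 is a scaffold of the complex that marks β-catenin for destruction, and Sp5 is a transcription factor that acts with or against β-catenin at target genes. In the zebrafish gastrula Wnt signalling posteriorizes the neural plate, and Dkk1 from the anterior side protects the forebrain.

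Gene expression was measured by RNA-Seq (CEL-Seq2, which counts transcripts from their 3′ ends with molecular identifiers) in 3 groups of sorted embryonic cells, with 2 libraries, called lot 1 and lot 2, in each group. ‘Mosaic’ cells were GFP+ cells from embryos injected with a plasmid in which the heat-shock promoter of *hsp70l* drives GFP and β-catCA, a constitutively active β-catenin that lacks its N-terminal part, so that scattered cells of an otherwise normal embryo carried it. ‘Ubiquitous’ cells were GFP+ cells from a transgenic line with the same kind of heat-shock cassette, in which the whole embryo expressed β-catCA, and ‘Uninjected’ cells came from wild-type embryos without β-catCA. Each group was pooled from 40 embryos, labelled 9 h post fertilization, while the methods give an earlier collection time. A heat shock of the ‘Uninjected’ embryos is not stated, and no group with GFP alone was analysed here. Heat shock, GFP sorting and β-catCA therefore cannot be told apart in the comparisons with ‘Uninjected’. Nor can injection be told apart from these for ‘Mosaic’, or the transgenic line for ‘Ubiquitous’. ‘Mosaic’ and ‘Ubiquitous’ also differed in delivery, by an injected plasmid or by a transgenic line. In their comparison, delivery cannot be told apart from scattered against whole-embryo expression. The level of the transgene itself was not analysed here. Fewer cells that express a gene and less RNA of it in each cell cannot be told apart in such pooled samples.

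The deposited values, regularized logs (rlog, in log2 units), correct for how deeply a library was sequenced and shrink weakly counted genes to their average over the libraries. The whole counts behind them were inferred by inverting that transformation, and totalled between 34540 (‘Ubiquitous’ lot 2) and 489311 (‘Uninjected’ lot 2) per library, a 14.2-fold range. ‘Ubiquitous’ lot 2 and ‘Uninjected’ lot 1 (58352 counts) were the shallow libraries. The 7 early embryo markers examined all had counts, although *nanog* and *vent* had none in ‘Ubiquitous’ lot 2. Their summed level was between 203 and 346 counts per 100000 over the libraries. A gene was tested if its mean rlog was at least 2, which 3905 genes reached, all 4 of the feedback genes among them.

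The secreted inhibitor gene *dkk1b* was higher in both β-catCA groups than in ‘Uninjected’. It had 53 and 54 inferred counts in ‘Mosaic’, 189 and 33 in ‘Ubiquitous’, against 3 and 34 in ‘Uninjected’ (lots 1 and 2). Scaled to the library totals, these were 24.4 and 22.5 counts per 100000 in ‘Mosaic’, 54.7 and 95.5 in ‘Ubiquitous’, against 5.14 and 6.95 in ‘Uninjected’. The 3 groups did not overlap, and ‘Ubiquitous’ was the highest and ‘Uninjected’ the lowest, also with the shallow libraries left out. The ‘Mosaic’ libraries lay close together, while the ‘Ubiquitous’ libraries lay far apart, with 95% exact Poisson intervals of 47.2 to 63.1 for lot 1 and 65.8 to 134 for lot 2. These intervals cover counting error only. The 3 counts of ‘Uninjected’ lot 1 left an interval of 1.06 to 15.0 per 100000, whose upper end was still below the lower ends of 18.3 and 16.9 in ‘Mosaic’.

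On the rlog scale *dkk1b* averaged 5.24 ± 0.05 in ‘Mosaic’, 6.43 ± 0.40 in ‘Ubiquitous’ and 4.11 ± 0.26 in ‘Uninjected’ (SD, n = 2 libraries each). ‘Mosaic’ was thus 1.13 (SE 0.24) and ‘Ubiquitous’ 2.33 (SE 0.24) above ‘Uninjected’, and ‘Mosaic’ minus ‘Ubiquitous’ was -1.19 (SE 0.24). The difference between ‘Ubiquitous’ and ‘Uninjected’ was the highest of all 3905 genes tested. In ratios of summed counts over the library totals, *dkk1b* was 3.46-fold higher in ‘Mosaic’ than in ‘Uninjected’ (95% exact interval 2.36 to 5.18, counting error only) and 8.64-fold higher in ‘Ubiquitous’ than in ‘Uninjected’ (6.08 to 12.6). The rlog differences were smaller than these ratios because rlog shrinks low counts toward the mean. The shrinkage also put the rlog of the shallow ‘Uninjected’ lot 1 (4.29) above that of lot 2 (3.93), although its level per 100000 was the lower. The lowest ‘Ubiquitous’ library was 7.87-fold above the highest ‘Uninjected’ library. Ratios of the mean levels per 100000, which weight both libraries of a group alike, were 3.88 for ‘Mosaic’ and 12.4 for ‘Ubiquitous’ against ‘Uninjected’.

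The Dishevelled-binding gene *nkd1* followed the same order of groups over a narrower range. It had 53 and 61 counts in ‘Mosaic’, 148 and 23 in ‘Ubiquitous’, against 8 and 50 in ‘Uninjected’, which were 24.4 and 25.4 counts per 100000 in ‘Mosaic’, 42.8 and 66.6 in ‘Ubiquitous’, against 13.7 and 10.2 in ‘Uninjected’. Again no library of one group reached into another group, and ‘Ubiquitous’ lot 2 was the highest library. The interval of ‘Uninjected’ lot 1, 5.92 to 27.0 per 100000 from 8 counts, overlapped those of both ‘Mosaic’ libraries, whereas that of the deep ‘Uninjected’ lot 2, 7.58 to 13.5, did not. Mean rlog was 5.33 ± 0.04 in ‘Mosaic’, 6.09 ± 0.30 in ‘Ubiquitous’ and 4.59 ± 0.39 in ‘Uninjected’ (SD, n = 2 each). The differences were 0.73 (SE 0.25) for ‘Mosaic’ minus ‘Uninjected’, 1.50 (SE 0.25) for ‘Ubiquitous’ minus ‘Uninjected’ and -0.77 (SE 0.25) for ‘Mosaic’ minus ‘Ubiquitous’. The difference of ‘Mosaic’ from ‘Uninjected’ was 0.46 without ‘Uninjected’ lot 2 and 1.005 without ‘Uninjected’ lot 1. In summed counts *nkd1* was 2.35-fold higher in ‘Mosaic’ (1.70 to 3.29) and 4.25-fold higher in ‘Ubiquitous’ (3.14 to 5.83) than in ‘Uninjected’. The ratios of its mean levels per 100000 were 2.08 for ‘Mosaic’ and 4.57 for ‘Ubiquitous’.

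The transcription factor gene *SP5* was higher in both β-catCA groups than in ‘Uninjected’, with a smaller gap between ‘Mosaic’ and ‘Ubiquitous’ than the other pair of genes had. It had 180 and 205 counts in ‘Mosaic’, 403 and 35 in ‘Ubiquitous’, against 23 and 143 in ‘Uninjected’. Per 100000 counts these were 82.9 and 85.3 in ‘Mosaic’, 117 and 101 in ‘Ubiquitous’, against 39.4 and 29.2 in ‘Uninjected’. The groups did not overlap, but the interval of ‘Ubiquitous’ lot 2, 70.6 to 141, took in both ‘Mosaic’ values. Mean rlog was 7.02 ± 0.04 in ‘Mosaic’, 7.28 ± 0.12 in ‘Ubiquitous’ and 5.97 ± 0.38 in ‘Uninjected’ (SD, n = 2 each). ‘Mosaic’ was 1.05 (SE 0.24) and ‘Ubiquitous’ 1.31 (SE 0.24) above ‘Uninjected’, while ‘Mosaic’ minus ‘Ubiquitous’ was -0.26 (SE 0.24), about the size of its standard error. The ratio of summed counts between ‘Mosaic’ and ‘Ubiquitous’ was 0.730 (0.635 to 0.839). *SP5* was 2.78-fold higher in ‘Mosaic’ (2.31 to 3.35) and 3.80-fold higher in ‘Ubiquitous’ (3.17 to 4.57) than in ‘Uninjected’ in summed counts. The ratios of its mean levels per 100000 were 2.45 for ‘Mosaic’ and 3.175 for ‘Ubiquitous’.

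The destruction-complex gene *axin2* did not separate the groups. It had 17 and 10 counts in ‘Mosaic’, 36 and 1 in ‘Ubiquitous’, against 5 and 17 in ‘Uninjected’, or 7.83 and 4.16 counts per 100000 in ‘Mosaic’, 10.4 and 2.90 in ‘Ubiquitous’, against 8.57 and 3.47 in ‘Uninjected’. The groups overlapped, and within every group lot 1 was above lot 2, a pattern that 469 of the 3905 genes tested (12.0%) shared. Whether the lot bears on *axin2* was not tested. Mean rlog was 3.23 ± 0.29 in ‘Mosaic’, 3.35 ± 0.44 in ‘Ubiquitous’ and 3.15 ± 0.45 in ‘Uninjected’ (SD, n = 2 each). The differences were 0.08 (SE 0.27) for ‘Mosaic’ minus ‘Uninjected’, 0.20 (SE 0.27) for ‘Ubiquitous’ minus ‘Uninjected’ and -0.11 (SE 0.27) for ‘Mosaic’ minus ‘Ubiquitous’.

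The reading of *axin2* depended on single libraries. With each library left out in turn, its difference ran between -0.24 and 0.40 for ‘Mosaic’ minus ‘Uninjected’ and between -0.13 and 0.52 for ‘Ubiquitous’ minus ‘Uninjected’, so the sign changed. Summed counts gave a 2.42-fold ratio of ‘Ubiquitous’ to ‘Uninjected’ (1.39 to 4.31), because they weighted the deep libraries, ‘Ubiquitous’ lot 1 and ‘Uninjected’ lot 2, against each other. The ratio of the mean levels per 100000 was 1.11. In the 4 deepest libraries alone, where ‘Ubiquitous’ and ‘Uninjected’ had 1 library each from different lots, the difference was 0.83. With 86 counts in all 6 libraries, the Poisson intervals of the lot 1 libraries, 4.56 to 12.5 per 100000 in ‘Mosaic’, 7.30 to 14.4 in ‘Ubiquitous’ and 2.78 to 20.0 in ‘Uninjected’, all overlapped. The interval of the deep ‘Uninjected’ lot 2, 2.02 to 5.56, lay below that of ‘Ubiquitous’ lot 1, a library of the other lot.

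**Figure D1:**
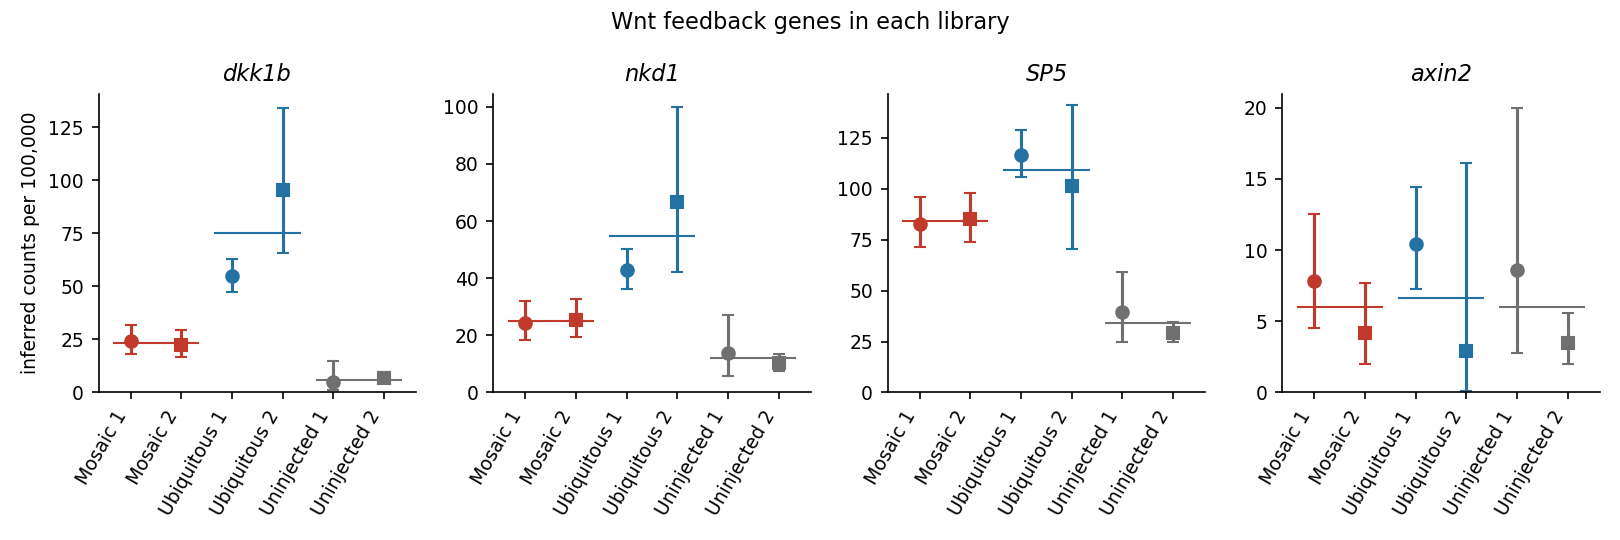
Inferred counts per 100,000 counts of the library (y axis, linear, from 0, a scale of its own for each gene) for *dkk1b*, *nkd1*, *SP5* and *axin2* in each of the 6 libraries (x axis: ‘Mosaic’, ‘Ubiquitous’ and ‘Uninjected’, lots 1 and 2). Points are libraries (circles lot 1, squares lot 2), bars are 95% exact Poisson intervals and horizontal lines are means of the 2 libraries. For *dkk1b*, *nkd1* and *SP5* both ‘Ubiquitous’ points lie above both ‘Mosaic’ points and these above both ‘Uninjected’ points, while for *axin2* the groups overlap and the lot 1 point is the higher in each group.

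Among all genes tested, the order ‘Ubiquitous’ over ‘Mosaic’ over ‘Uninjected’ without overlap on the rlog scale was found for 38 of 3905 (0.973%), and *dkk1b*, *nkd1* and *SP5* were 3 of these. The threshold of an adjusted p under 0.1 (limma, Benjamini-Hochberg over the 3905 genes) was passed by 54 genes (1.38%) between ‘Mosaic’ and ‘Uninjected’, by 19 (0.487%) between ‘Ubiquitous’ and ‘Uninjected’ and by 52 (1.33%) between ‘Mosaic’ and ‘Ubiquitous’. In the 4 deepest libraries alone, ‘Ubiquitous’ and ‘Uninjected’ had 1 library each, so the calls there are not given. Leaving out ‘Mosaic’ lot 1 or lot 2 lowered the 54 to 28 or 25 and the 52 to 2 in both cases, and leaving out ‘Ubiquitous’ lot 2 lowered the 52 to 10. As the genes were chosen with these comparisons in view, nothing is read from the fact that *dkk1b* and *SP5* were among the 54, *dkk1b*, *nkd1* and *SP5* among the 19, and *dkk1b* among the 52. By rank, *dkk1b* had the highest, *nkd1* the second highest and *SP5* the fourth highest difference between ‘Ubiquitous’ and ‘Uninjected’. Between ‘Mosaic’ and ‘Uninjected’ they ranked 11, 47 and 13 from the top, so other genes stood above all of them there. In that comparison *axin2* ranked 1658 and lay in the bulk of the genes.

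**Figure D2:**
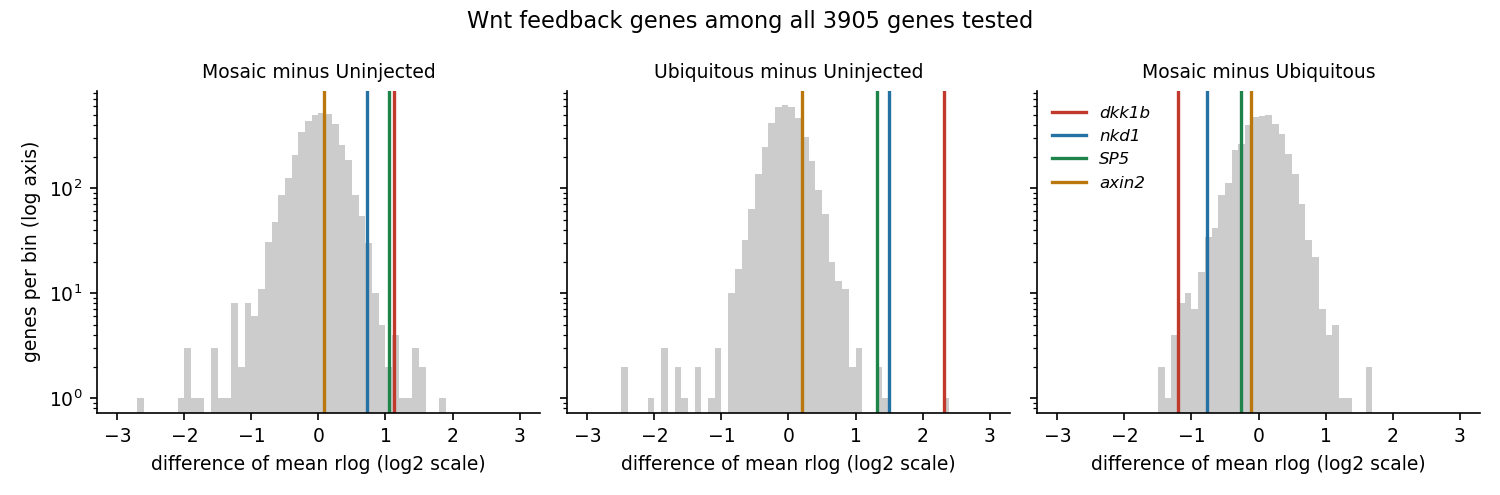
Histograms of the difference of mean rlog (x axis, log2 scale, bins of 0.1) over the 3905 genes tested, for each comparison, with the number of genes per bin on a log axis. Coloured lines mark *dkk1b*, *nkd1*, *SP5* and *axin2*. In ‘Ubiquitous’ minus ‘Uninjected’ the lines of *dkk1b* (2.33), *nkd1* (1.50) and *SP5* (1.31) stand at the right end of the distribution, and that of *axin2* (0.20) stands within its bulk.

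The step of ‘Mosaic’ above ‘Uninjected’ was smaller than that of ‘Ubiquitous’ for the 3 genes that separated the groups. On the rlog scale it came to 48.7% of the ‘Ubiquitous’ step for *dkk1b*, 48.8% for *nkd1* and 79.9% for *SP5*. In mean counts divided by the size factors the shares were 25.9%, 31.3% and 69.2%, so *SP5* had the largest share on both scales. The comparisons share their ‘Uninjected’ libraries, and these shares have no test of their own. The differences of *dkk1b*, *nkd1* and *SP5* kept their direction in 135 of 135 recomputations, those with 1 library left out included. Many of these could not change a difference of group means, such as those with another filter, another variance prior or a library of the third group left out. As the genes were chosen on their group levels, the kept direction is a description only.

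The make-up of the feedback genes' counts restates the levels above, on which the genes were chosen, and is a description. Of the summed counts of the 4 genes, *dkk1b* took 17.5% (95% exact binomial interval 13.4% to 22.3%) and 16.4% (12.5% to 20.8%) in the ‘Mosaic’ libraries, 24.4% (21.4% to 27.5%) and 35.9% (26.1% to 46.5%) in ‘Ubiquitous’, against 7.69% (1.62% to 20.9%) and 13.9% (9.85% to 18.9%) in ‘Uninjected’. The groups did not overlap in this share, although the intervals of ‘Mosaic’ lot 1 and ‘Ubiquitous’ lot 1 overlapped, as did those of ‘Mosaic’ and ‘Uninjected’. The share in ‘Uninjected’ lot 1 rested on 3 *dkk1b* counts. How often such shares of other genes separate the groups was not examined. The share of *nkd1* was between 17.5% and 25% in every library. The 4 genes together gave 140 and 137 counts per 100000 in ‘Mosaic’, 225 and 266 in ‘Ubiquitous’, against 66.8 and 49.9 in ‘Uninjected’.

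**Figure D3:**
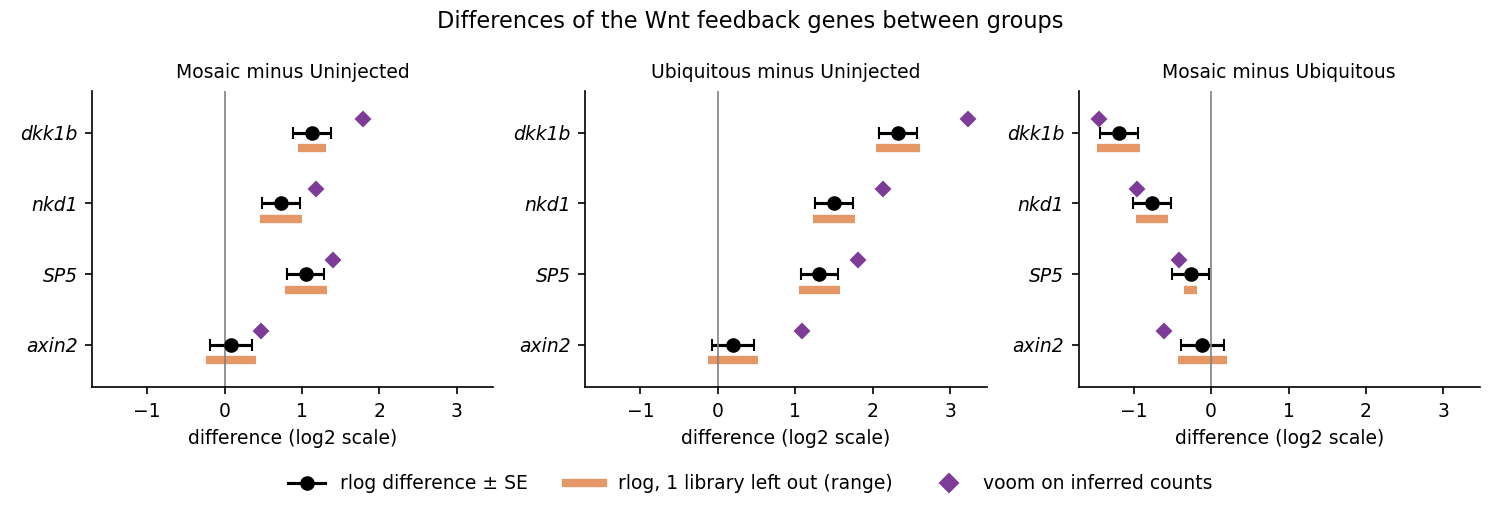
Differences between group means (x axis, log2 scale) of *dkk1b*, *nkd1*, *SP5* and *axin2* in the 3 comparisons. Black points with bars are rlog differences ± SE from the fit over 6 libraries, orange bars span the values with 1 library left out, and purple diamonds are voom estimates from the inferred counts. The orange bars cross 0 for *axin2* in all 3 comparisons and for none of the other genes, and the voom estimates lie farther from 0 than the rlog differences.

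The genes with the most similar profile over the 6 libraries were looked up by Pearson's r of rlog among the 106 other genes that varied with an SD of at least 0.5 (107 for *axin2*). With n = 6 libraries in 3 groups, r mostly restates the group means and is a description. For *dkk1b* the closest were *nkd1* (r = 0.99), *UBB* (r = 0.96) and *SP5* (r = 0.90), and for *nkd1* they were *dkk1b*, *UBB* (r = 0.93) and *SP5* (r = 0.91). *UBB* encodes a polyubiquitin and had 41.4 and 43.3 counts per 100000 in ‘Mosaic’, 85.7 and 110.0 in ‘Ubiquitous’, against 24.0 and 34.1 in ‘Uninjected’, although near-identical ubiquitin copies make its counts uncertain. For *SP5* the third gene after *nkd1* and *dkk1b* was *GBX1* (r = 0.89), a homeobox gene of the hindbrain. The profile of *axin2* was closest to that of *ARHGEF16* (r = 0.81), then to those of the homeobox gene *meis2b* (r = 0.66) and *RBM38*, which encodes an RNA-binding protein (r = 0.55). It had r = 0.44 with *SP5*, 0.28 with *nkd1* and 0.24 with *dkk1b*.

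Other genes of the pathway were read from lists by role, of which 60 genes were tested. The lists were chosen with earlier results of these data known. Nothing is therefore read from their shares being above those of all genes tested. In ‘Mosaic’ against ‘Uninjected’ 2 rose and 5 fell (11.7%, against 1.38% of all genes tested), in ‘Ubiquitous’ against ‘Uninjected’ 1 fell (1.67%, against 0.487%), and between ‘Mosaic’ and ‘Ubiquitous’ 1 was higher and 3 were lower in ‘Mosaic’ (6.67%, against 1.33%). Of all genes tested, 0.538% rose and 0.845% fell in ‘Mosaic’ and 0.154% rose and 0.333% fell in ‘Ubiquitous’ against ‘Uninjected’, while 0.512% were higher and 0.819% lower in ‘Mosaic’ than in ‘Ubiquitous’. The median difference of the lists was 0.06, -0.02 and 0.06 in these comparisons, beside 0.02, -0.03 and 0.05 over all genes tested. In ‘Ubiquitous’ against ‘Uninjected’ no listed gene rose past the threshold in limma or in voom on the inferred counts. The contrast with *dkk1b*, *nkd1* and *SP5*, chosen on their group levels, is a description only. Calls in the 4 deepest libraries alone are not given, since ‘Ubiquitous’ and ‘Uninjected’ had 1 library each there.

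Among the ligands, 13 of 27 genes were listed at 0 in every library, both genes named *WNT8A* among them. A listing at 0 cannot tell an unexpressed gene from one whose 3′-end reads were not assigned to it. Only *WLS*, which carries Wnt proteins to the cell surface, and *wnt11f2*, a ligand of the non-canonical branch, were tested. Neither passed in limma or voom in any comparison, and both had an unadjusted p under 0.05 between ‘Mosaic’ and ‘Ubiquitous’ (0.54 for *WLS*, -0.50 for *wnt11f2*, SE 0.24 and 0.23). Of 9 receptors tested, *FZD8* (ENSDARG00000038569), a Frizzled receptor of anterior tissue, passed. It had 11.0 and 19.1 counts per 100000 in ‘Mosaic’, 38.2 and 69.5 in ‘Ubiquitous’, against 34.3 and 75.2 in ‘Uninjected’. Both ‘Mosaic’ libraries were below all others, with a difference of -1.29 (SE 0.29) from ‘Uninjected’ (adjusted p = 0.0311, limma) and of -1.27 (SE 0.29) from ‘Ubiquitous’ (adjusted p = 0.0445, limma). The co-receptor gene *LRP6*, on whose protein Dkk1 acts, differed by 0.23 in ‘Mosaic’ and by 0.71 in ‘Ubiquitous’ from ‘Uninjected’ (SE 0.25), and the 2 genes named *FZD7* by 0.20 and -0.44 (ENSDARG00000060004, SE 0.26) and by -0.30 and -0.24 (ENSDARG00000027589, SE 0.22), none past the threshold.

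None of the 16 cytoplasmic transducers tested passed in limma or in voom in any comparison, and none had an unadjusted p under 0.05. *CTNNB1*, which encodes β-catenin itself, had 197 and 201 counts per 100000 in ‘Mosaic’, 152 and 130 in ‘Ubiquitous’, against 173 and 125 in ‘Uninjected’. Whether transcripts of the mouse β-catCA were counted with it was not tested. Its kinase *CSNK1A1* and the phosphatase subunit gene *PPP2CA* differed from ‘Uninjected’ by -0.23 and 0.19 in ‘Mosaic’ (SE 0.26 and 0.24) and by -0.48 and 0.45 in ‘Ubiquitous’ (same SE).

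Of 13 nuclear factors tested, *TCF7L1*, a TCF factor that acts as a repressor of Wnt targets, passed in ‘Mosaic’ against ‘Uninjected’. It had 13.3 and 17.5 counts per 100000 in ‘Mosaic’, 25.8 and 20.3 in ‘Ubiquitous’, against 53.1 and 51.1 in ‘Uninjected’. All β-catCA libraries were below both ‘Uninjected’ libraries, with a difference of -1.24 (SE 0.22) in ‘Mosaic’ (adjusted p = 0.00633, limma) and of -0.83 (SE 0.22) in ‘Ubiquitous’ (adjusted p = 0.25, limma). *RUVBL1*, *tle2a* and *SMARCA4*, which encode a chromatin ATPase, a Groucho co-repressor and a chromatin remodeller, did not pass, with differences of 0.26, 0.55 and -0.05 in ‘Mosaic’ and -0.02, 0.15 and -0.22 in ‘Ubiquitous’ (SE 0.22 to 0.24).

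Among the other antagonists, 2 fell in ‘Mosaic’ and 1 in ‘Ubiquitous’ against ‘Uninjected’, and none rose. Of 24 listed, 16 were at 0 in every library, the paralogs *dkk1a* and *NKD2* among them, and 3 were tested. *shisa2a*, whose family in frogs retains Frizzled and FGF receptors inside the cell, had 9.21 and 13.3 counts per 100000 in ‘Mosaic’, 11.6 and 23.2 in ‘Ubiquitous’, against 49.7 and 49.2 in ‘Uninjected’. Both β-catCA groups lay below ‘Uninjected’ without overlap, and it fell in ‘Mosaic’ (-1.48, SE 0.25, adjusted p = 0.00363, limma) and in ‘Ubiquitous’ (-1.15, SE 0.25, adjusted p = 0.0596, limma). The Wnt-binding gene *SFRP1* (ENSDARG00000035521) fell in ‘Mosaic’ (-1.01, SE 0.24, adjusted p = 0.0443, limma) and differed by -0.88 in ‘Ubiquitous’ (adjusted p = 0.255, limma). It had 7.36 and 5.41 counts per 100000 in ‘Mosaic’, 10.1 and 2.90 in ‘Ubiquitous’, against 18.9 and 24.7 in ‘Uninjected’. *frzb*, another secreted Wnt-binding protein's gene, differed by -0.27 and 0.08 (SE 0.23) and did not pass.

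Of 17 other target genes tested, 2 rose and 1 fell in ‘Mosaic’ against ‘Uninjected’, and none passed in ‘Ubiquitous’ against ‘Uninjected’ in limma or voom, where 4 had an unadjusted p under 0.05. *GBX1* had 41.9 and 62.4 counts per 100000 in ‘Mosaic’, 44.3 and 40.5 in ‘Ubiquitous’, against 18.9 and 17.2 in ‘Uninjected’. It rose in ‘Mosaic’ (1.12, SE 0.24, adjusted p = 0.0219, limma) and differed by 0.87 in ‘Ubiquitous’ (adjusted p = 0.267, limma). The hindbrain gene *hoxb1b* had 35.4 and 32.1 counts per 100000 in ‘Mosaic’, 13.0 and 5.79 in ‘Ubiquitous’, against 1.71 and 10.4 in ‘Uninjected’. It was higher in both ‘Mosaic’ libraries than in any other, by 1.50 (SE 0.24) against ‘Uninjected’ (adjusted p = 0.00205, limma) and by 1.16 (SE 0.24) against ‘Ubiquitous’ (adjusted p = 0.034, limma), unlike *dkk1b*, whose ‘Ubiquitous’ libraries were the highest. The call of *hoxb1b* against ‘Ubiquitous’ was lost in voom (1.50, adjusted p = 0.132).

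The mesodermal T-box gene *tbxta* had 21.2 and 22.9 counts per 100000 in ‘Mosaic’, 87.7 and 86.9 in ‘Ubiquitous’, against 122 and 50.9 in ‘Uninjected’. Both ‘Mosaic’ libraries were the lowest, with -1.38 (SE 0.29, adjusted p = 0.0205, limma) against ‘Uninjected’ and -1.50 (SE 0.29, adjusted p = 0.025, limma) against ‘Ubiquitous’. Without the shallow ‘Uninjected’ lot 1, the higher of the ‘Uninjected’ libraries, the difference from ‘Uninjected’ was -0.81 and the call was lost (adjusted p = 0.295, limma). *tbx16*, also a mesodermal T-box gene, was lower in ‘Mosaic’ than in ‘Ubiquitous’ (-1.13, SE 0.23, adjusted p = 0.034, limma). The cyclin gene *CCND1* and the mesoderm gene *msgn1* did not pass, with differences of -0.38 and -0.26 in ‘Mosaic’ and -0.02 and 0.35 in ‘Ubiquitous’ from ‘Uninjected’ (SE 0.24 and 0.27).

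These calls in the lists rested on few libraries. For some of these genes the libraries of a group lay apart from all the others. How often that occurs among all genes tested was not counted. With each library left out, the 7 calls of ‘Mosaic’ against ‘Uninjected’ went down to 3 without ‘Mosaic’ lot 1 and to 4 without ‘Mosaic’ lot 2 or without ‘Uninjected’ lot 2. The 4 calls of ‘Mosaic’ against ‘Ubiquitous’ went to 0 without either ‘Mosaic’ library or without ‘Ubiquitous’ lot 2, with 7, 8 and 9 list genes at an unadjusted p under 0.05. The call of *shisa2a* in ‘Ubiquitous’ was lost without ‘Ubiquitous’ lot 1 (adjusted p = 0.336), without ‘Uninjected’ lot 1 (0.227) and without ‘Uninjected’ lot 2 (0.2), all in limma. The direction of every call was kept in each of these fits.

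**Figure D4:**
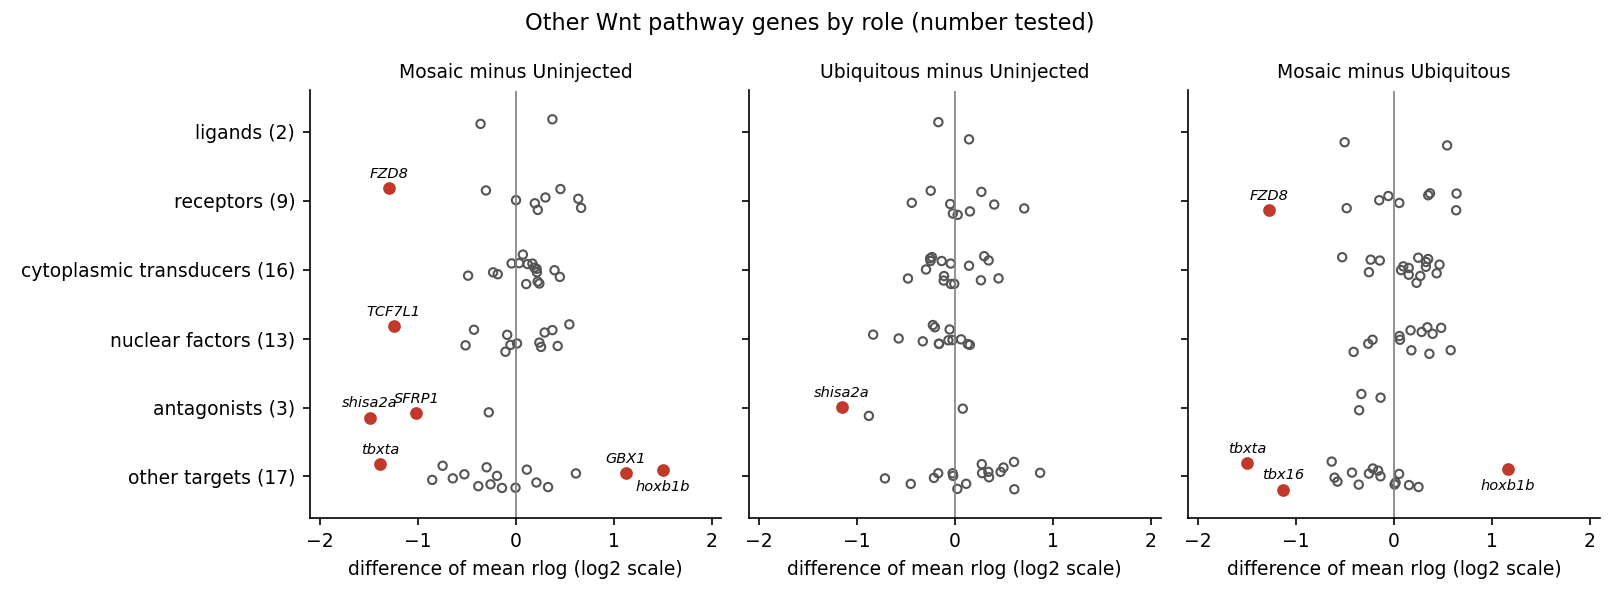
Difference of mean rlog (x axis, log2 scale) of the 60 other Wnt pathway genes tested, by role (rows, with the number of genes tested), in the 3 comparisons; the height within a row is spread for visibility only. Each circle is a gene, and filled red circles with a name passed an adjusted p under 0.1 (limma). In ‘Ubiquitous’ minus ‘Uninjected’ only *shisa2a* passed. No listed gene stands as far to the right there as *dkk1b*, *nkd1* and *SP5*. As these were chosen on their group levels, nothing is read from this.

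Marker levels of cell types known to express *dkk1b* were set beside it, since Dkk1 is made in the prechordal plate. The 12 genes of a prechordal plate and hatching gland list summed to 72.3 and 76.6 counts per 100000 in ‘Mosaic’, 105 and 119 in ‘Ubiquitous’, against 134 and 225 in ‘Uninjected’. Both β-catCA groups were thus below ‘Uninjected’, unlike for *dkk1b*, while ‘Mosaic’ was below ‘Ubiquitous’. The order of ‘Mosaic’ and ‘Ubiquitous’ rested on *FZD8* (ENSDARG00000038569), with 11.0 and 19.1 in ‘Mosaic’ against 38.2 and 69.5 in ‘Ubiquitous’. Without it the sums of ‘Mosaic’ and ‘Ubiquitous’ overlapped. Of 8 genes of this list tested, 2 fell in ‘Mosaic’ and 1 in ‘Ubiquitous’ against ‘Uninjected’, beside 0.845% and 0.333% of all genes tested. A ventrolateral and posterior mesoderm list of 9 genes summed to 183 and 171 in ‘Mosaic’. It summed to 404 and 405 in ‘Ubiquitous’, against 374 and 225 in ‘Uninjected’. Of 6 genes of that list tested, 2 were lower in ‘Mosaic’ than in ‘Ubiquitous’, beside 0.819% of all genes tested. They were *tbxta* and *tbx16*, the calls already given among the other target genes. As the marker lists were chosen with earlier results of these data known, these counts are a description. The marker lists also share genes with each other and with the Wnt lists, *FZD8* among them, so they are not separate readings. The 6 anterior neural genes summed to 8.29 and 9.16 in ‘Mosaic’, 4.92 and 0 in ‘Ubiquitous’ (where a count of 0 allows up to 8.69) and 42.8 and 69.9 in ‘Uninjected’, and the 5 posterior neural genes to 88.4 and 88.3 in ‘Mosaic’, 71.8 and 49.2 in ‘Ubiquitous’, against 42.8 and 48.6 in ‘Uninjected’. The sum of the 8 heat shock genes overlapped between the groups, with 1478 and 1418 in ‘Mosaic’, 1127 and 1540 in ‘Ubiquitous’, against 1729 and 1025 in ‘Uninjected’, but it came mostly from *HSPB1* and *HSPA8*. Of the 6 heat shock genes tested, *hsp90aa1.1* rose in ‘Mosaic’ against ‘Uninjected’ (0.997, adjusted p = 0.0308, limma). *hsp70.3* was lower in ‘Mosaic’ than in ‘Ubiquitous’ (-0.98, adjusted p = 0.0548, limma). Of all genes tested, 0.538% rose in the former comparison and 0.819% were lower in the latter. Against ‘Uninjected’, *HSPB1* differed by 0.435 in ‘Mosaic’, and *hsp70l*, *hsp70.1*, *hsp70.3* and *HSPA8* (ENSDARG00000068992) by -0.062, -0.318, -0.271 and -0.535, none past the threshold. In ‘Ubiquitous’, *hsp90aa1.1* differed from ‘Uninjected’ by 0.671 and *hsp70.3* by 0.709. There *HSPB1*, *hsp70l*, *hsp70.1* and the same *HSPA8* differed by 0.035, -0.25, -0.343 and -0.113, and none of these heat shock genes passed. These genes were named after their values were seen. The part of cell type make-up and heat shock in the levels of *dkk1b*, *nkd1* and *SP5* was not tested.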

How the data were processed

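Cells of 3 groups were sequenced in 2 libraries each. The authors prepared the libraries by CEL-Seq2, mapped reads with Bowtie2 2.3.1 on the GRCz10 assembly, counted genes with HTSeq 0.6.1 after dropping duplicate molecular identifiers, and deposited log2 values shrunk by the regularized log (rlog). The versions and the build are from the submitters' processing notes. The deposited values hold no counts, so whole counts were inferred by fitting the size factors, dispersion trend and shrinkage that gave the rlog values (Python 3.11.15, numpy 2.4.6, scipy 1.17.1, pandas 2.3.3). They returned 14131 of the 14132 genes not at 0 to within 0.001, and 18134 genes were at 0 in all libraries. A library's total was 34540 to 489311 inferred counts, and a count of 0 allows up to 3 counts of that total.

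Group means of rlog were compared with limma 3.58.1 (R 4.3.3) over all 6 libraries with a variance trend, with Benjamini-Hochberg adjustment across 3905 genes (mean rlog no lower than 2) and a threshold of 0.1. The steps were tested on simulated data. An exact permutation test of 2 against 2 libraries cannot go below p = 0.333 and was not used. That the lots came from separate embryos is not stated, so p-values may measure technical spread only.

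The 4 genes, the lists of Wnt pathway and marker genes and the naming rule were chosen with earlier results of these data known. Named are the 4 genes, each Wnt list gene that passed in any comparison, the 3 of each Wnt list with the highest mean rlog, and the 3 genes most like each of the 4. List names were matched by symbol, or by the symbol without its paralog letter, and are then given under the table's symbol. Of 155 names in the Wnt lists 142 matched, to 150 genes, of which 49 were at 0 in all libraries. Alternatives were other filters, normalizations and variance priors, a fit of the 4 libraries compared, the lot as a block, voom on the inferred counts, and each library left out. Added after the data were seen were the 4 deepest libraries alone and a block with crossed lot numbers.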

Additional observations from a re-analysis of the deposited data

Results flagged for a closer look

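The 4 feedback genes were not screened here, since they were chosen with these comparisons known, and with 2 libraries per group no library could be tested as an outlier. For 4 other Wnt pathway genes the direct test of ‘Mosaic’ against ‘Ubiquitous’ passed (limma, adjusted p under 0.1). None of these calls was kept without a filter, and they depended on single libraries, as given above. Delivery of the cassette also differed between these groups, and the part of β-catCA in these differences was not tested. *hoxb1b* was higher in ‘Mosaic’ by 1.16 on the rlog scale, a call that voom on the inferred counts did not make (adjusted p = 0.132). *FZD8* differed by -1.27, *tbx16* by -1.13 and *tbxta* by -1.50, all lower in ‘Mosaic’ than in ‘Ubiquitous’.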

How the results depend on the processing

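No result changed its direction among the called values. Genes called between ‘Mosaic’ and ‘Uninjected’ numbered 54, and were 6 without a filter, 18 with a mean rlog of at least 4, 142 in the 4 deepest libraries and 25 to 64 with 1 library left out. Between ‘Ubiquitous’ and ‘Uninjected’ they numbered 19, and were 7, 5, 54 and 14 to 25 under the same settings. Between ‘Mosaic’ and ‘Ubiquitous’ they numbered 52, and were 0 (950 at an unadjusted p under 0.05), 24, 159 and 2 to 67. Without a filter the adjustment ran over 14132 genes.

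Wnt list genes called were 7, 1 and 4 in the same order of comparisons. Without a filter they were 0, 0 and 0 (14, 8 and 8 at an unadjusted p under 0.05), and with 1 library left out 3 to 8, 0 to 1 and 0 to 5. For ‘Ubiquitous’ against ‘Uninjected’ the count was 0 with a mean rlog of at least 4 (6 at an unadjusted p under 0.05). It was also 0 with quantile normalization (10 at an unadjusted p under 0.05). The cause was not tested.

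The voom estimates were farther from 0 than the rlog differences. They were 1.78 for *dkk1b* and 1.18 for *nkd1* in ‘Mosaic’ minus ‘Uninjected’, 3.23 for *dkk1b*, 2.13 for *nkd1*, 1.81 for *SP5* and 1.08 for *axin2* in ‘Ubiquitous’ minus ‘Uninjected’, and -0.41 for *SP5* and -0.61 for *axin2* in ‘Mosaic’ minus ‘Ubiquitous’. In the 4 deepest libraries the *axin2* difference between ‘Ubiquitous’ and ‘Uninjected’ was 0.83. With 1 library left out, *axin2* ranged from -0.24 to 0.40, from -0.13 to 0.52 and from -0.43 to 0.20 in the 3 comparisons.

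Deviations of same-numbered libraries from their group means had correlations of -0.12, -0.04 and -0.06 over genes, so the lot numbers were not taken to pair libraries. With the lot number as a replicate block 57, 23 and 50 genes were called, and the 12 calls of Wnt list genes were kept. The crossed pairing of lots, added after the data were seen, called 177 genes between ‘Mosaic’ and ‘Uninjected’. It was fitted on the 4 libraries compared only, where the fit without a block called 64. The 57 came from all 6 libraries, so the 177 and the 57 are not a like comparison.

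Depth limits *axin2*, with a single count in ‘Ubiquitous’ lot 2, and *dkk1b*, with 3 counts in ‘Uninjected’ lot 1. It also limits list genes that were called. *hoxb1b* had 1 count in ‘Uninjected’ lot 1 and 2 in ‘Ubiquitous’ lot 2, and *SFRP1* had 1 in ‘Ubiquitous’ lot 2.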
